A study of Mus musculus with 4 samples.

Results

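The genes described here are Mir142, which encodes the microRNA that was deleted, and 9 genes that lie around it on mouse chromosome 11. They are Rnf43, Hsf5, Mtmr4, Tex14, Rad51c, Ppm1e, Trim37, Tspoap1 and Mpo. All 10 were found among the 19938 genes that a probe set with a single gene symbol measured, and each had 1 such probe set. The expression data came from dendritic cells (DCs) grown for 8 days from bone marrow of C57BL/6 mice in 200 ng/ml Flt3 ligand, a cytokine that drives the growth of DCs. The groups were miR-142-/- (ko) CD8-equivalent DCs, miR-142+/+ (wt) CD8-equivalent DCs, miR-142-/- CD4-equivalent DCs and miR-142+/+ CD4-equivalent DCs, each measured on 1 Affymetrix array. Cells were sorted as negative for B220 and positive for CD11c. CD8-equivalent DCs were CD24-positive, CD172-negative and low in CD11b, and CD4-equivalent DCs were positive for CD172 and CD11b and low in CD24. The number of mice or cultures per array is not in the labels, and neither is the part of the Mir142 locus that the mutation removed.

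miR-142 is made in blood cells of nearly every lineage. Its primary transcript is cut to a hairpin precursor, and the hairpin yields 2 mature strands that guide Argonaute proteins to messenger RNAs with matching sites, which lowers the stability and translation of those RNAs. A target is recognised mainly through the seed, bases 2 to 8 of the mature strand. Deleting a microRNA gene can therefore act on genes elsewhere in the genome through lost repression, while genes beside it share its chromosomal surroundings. How the neighbours read on the same 4 arrays is the subject of the values below.

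The deleted microRNA is shown first, as RefSeq gives it on build GRCm38.p6. Of the 10 genes only Mir142 encodes a microRNA. The hairpin lies on the plus strand at chr11:87756864-87756927, and its capitals mark the 2 mature strands. In the mature sequences the capitals mark the seeds, AUAAAGU and GUAGUGU, which differ, so that the strands belong to separate seed groups. RefSeq also places a further microRNA gene, Mir142b, over the same stretch, and the array value of Mir142 cannot be told apart from it.
Mir142 hairpin: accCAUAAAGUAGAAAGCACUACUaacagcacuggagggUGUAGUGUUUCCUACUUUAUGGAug
mmu-miR-142a-5p: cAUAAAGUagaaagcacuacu
mmu-miR-142a-3p: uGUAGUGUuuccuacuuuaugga

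Each value is a log2 summary of 1 probe set on 1 array, made with RMA, and precision is limited by there being 4 arrays. With 1 array a group, a difference between 2 arrays is a description without a test. A gene was compared between 2 arrays when the higher value reached a floor of 5.68, the median of all single-symbol probe sets, below which values were treated as uninformative. The effect of genotype common to both subsets was tested with limma in a model with terms for genotype and subset, over the 10239 genes with at least 1 array at the floor or higher, with Benjamini-Hochberg adjustment. In that test the subsets serve as the repeats of the genotype difference, and nothing says that the arrays came from separate cultures. The spread of a gene rests on 1 residual degree of freedom, pulled toward a value shared by all genes tested. The p-values therefore do not measure a spread between cultures.

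Of the sort markers, Sirpa, the gene of CD172a, read 9.67 in ko and 9.69 in wt CD8-equivalent DCs, against 11.92 in ko and 12.11 in wt CD4-equivalent DCs, and Itgam, the gene of CD11b, was likewise lower in CD8-equivalent DCs, by 3.66-fold in ko and 4.01-fold in wt. Cd24a was higher in CD8-equivalent DCs, by 1.66-fold in ko and 3.43-fold in wt. Itgax, the gene of CD11c, read between 10.52 and 11.30 on all 4 arrays. The ko CD4-equivalent array stood apart in its neutrophil markers, whose summed linear value over 12 genes was 4118, against 1029 in wt CD4-equivalent DCs. It also had a higher summed value for 8 markers of CD8-equivalent DCs, 12970 against 5039 in wt CD4-equivalent DCs, and for 7 markers of plasmacytoid DCs, 9348 against 4809. In the CD8-equivalent arrays these sums were 19002 in ko and 19128 in wt for the first list, and 13749 in ko and 11481 in wt for the second.

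Mir142 fell in ko in both subsets. It read 4.79 in ko against 9.87 in wt CD8-equivalent DCs, and 4.92 in ko against 10.37 in wt CD4-equivalent DCs. Both wt arrays stood far above the floor and both ko arrays below it, with no overlap. The differences, ko minus wt, were -5.08 and -5.45, or 33.8-fold and 43.7-fold lower in ko. They were the lowest of 9972 genes compared in CD8-equivalent DCs and of 9978 in CD4-equivalent DCs. With the ko values raised to the floor, they were still 18.2-fold and 25.8-fold. In limma the mean difference was -5.26 ± 0.14 (SE, 4 arrays), with an adjusted p of 0.0029. Mir142 entered that fit through the wt arrays alone, so this p is given as a description. Without a floor the adjusted p in limma was 0.022. Whether the probes lie in the deleted part is not known from the labels, so the value checks the genotype labels only if they do. Between subsets of wt, the CD8-equivalent minus CD4-equivalent difference of Mir142 was -0.50, and limma's subset difference of -0.32 ± 0.14 (SE) did not pass the test (adjusted p = 0.20).

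**Figure D1:**
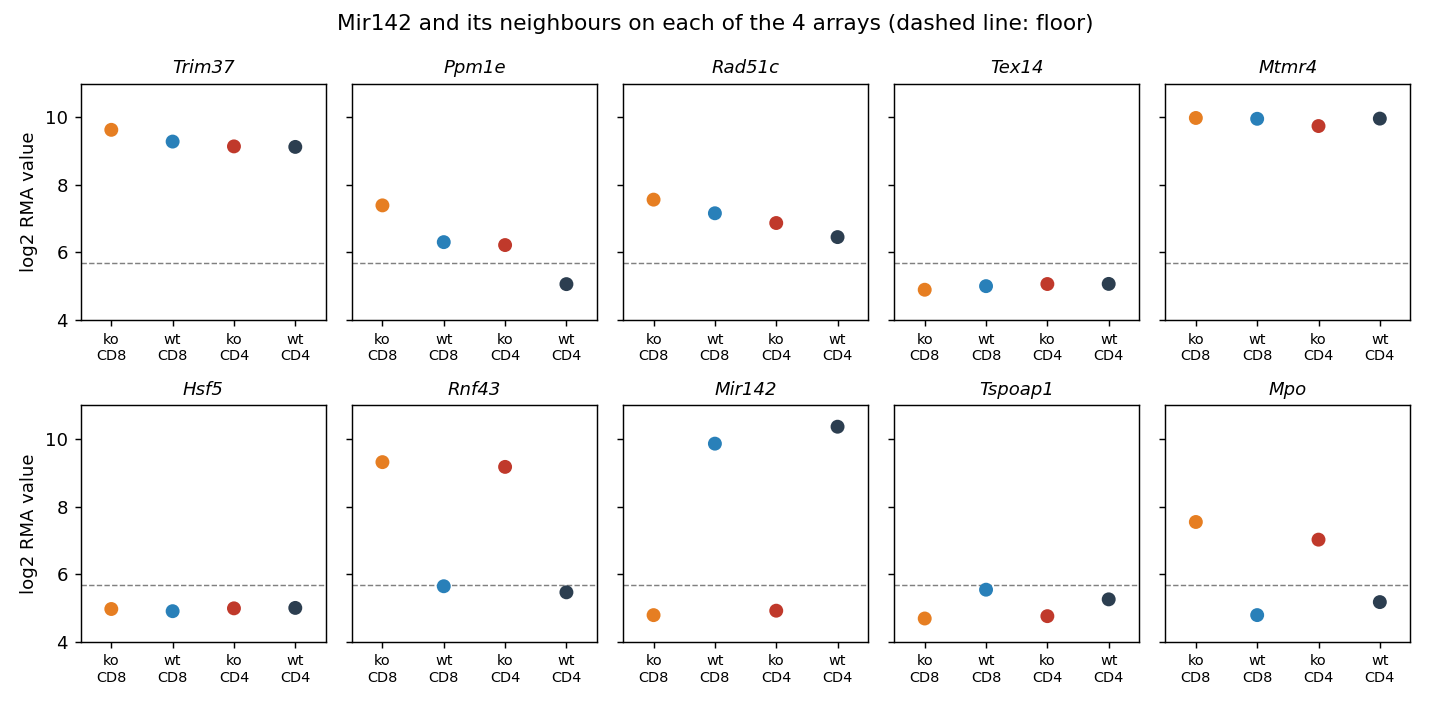
Log2 RMA values (y axis) of Mir142 and 9 neighbours on each of the 4 arrays (x axis, 1 point an array), with genes in their RefSeq order and the floor of 5.68 as a dashed line. Rnf43 and Mpo lie above the floor in both ko arrays and below it in both wt arrays, and Mir142 shows the opposite.

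In the RefSeq order of chromosome 11 the measured genes run Trim37, Ppm1e, Rad51c, Tex14, Septin4, Mtmr4, Hsf5, Rnf43, Mir142, Tspoap1, Mpo, Lpo and Mks1. From Trim37 to Mpo RefSeq lists 27 genes, of which 11 had a single-symbol probe set. Supt4a lies between Rnf43 and Mir142, but the 2 probe sets that carry its name also carry Supt4b, so its values were not used. Of the 9 neighbours, 6 reached the floor in the comparison of ko with wt in each subset. In CD8-equivalent DCs 3 of these passed 2-fold upward in ko and 0 downward, where 1.14% of all genes compared passed upward and 1% downward. In CD4-equivalent DCs the numbers were again 3 and 0, where the shares over all genes were 1.39% upward and 0.952% downward. The 3 were Rnf43, Mpo and Ppm1e in both subsets, and over 9711 genes 0.412% passed upward in both and 0.319% downward in both. Rnf43 and Mpo reached the floor through the ko arrays alone and Ppm1e did so in CD4-equivalent DCs, so these counts are given as a description. Over the same fit, limma called 2 of the 7 genes tested here for genotype, Mir142 and Rnf43, where 0.166% of all genes tested were called. Mir142 entered that fit through the wt arrays alone and Rnf43 through the ko arrays alone, so this count too is only a description.

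Rnf43, the measured neighbour next to Mir142, rose in ko. It encodes a transmembrane ubiquitin ligase that removes Frizzled receptors from the cell surface and so dampens Wnt signalling. Its value was 9.32 in ko against 5.64 in wt CD8-equivalent DCs. In CD4-equivalent DCs it was 9.18 in ko against 5.46 in wt. The ko arrays of both subsets lay within 0.14 of each other, and both wt arrays lay below the floor. The differences were 3.67 and 3.71, or 12.8-fold and 13.1-fold, and 12.5-fold and 11.3-fold with the wt values raised to the floor. Rnf43 ranked 1 among all genes compared in CD8-equivalent DCs and 3 in CD4-equivalent DCs. In limma its mean difference was 3.69 ± 0.12 (SE), with an adjusted p of 0.0031, rank 2 by p behind Mir142. Rnf43 entered that fit through the ko arrays alone, so its p and rank are given as a description. Without a floor its adjusted p in limma was 0.022. The subsets did not separate for Rnf43 in limma (0.16 ± 0.12 (SE), adjusted p = 0.39), and its difference of differences, CD8-equivalent minus CD4-equivalent, was -0.04. The RefSeq span of Rnf43 holds the long non-coding RNA gene 1110028F11Rik and the pseudogene Gm25968, and which of them the probes read cannot be told apart here.

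**Figure D2:**
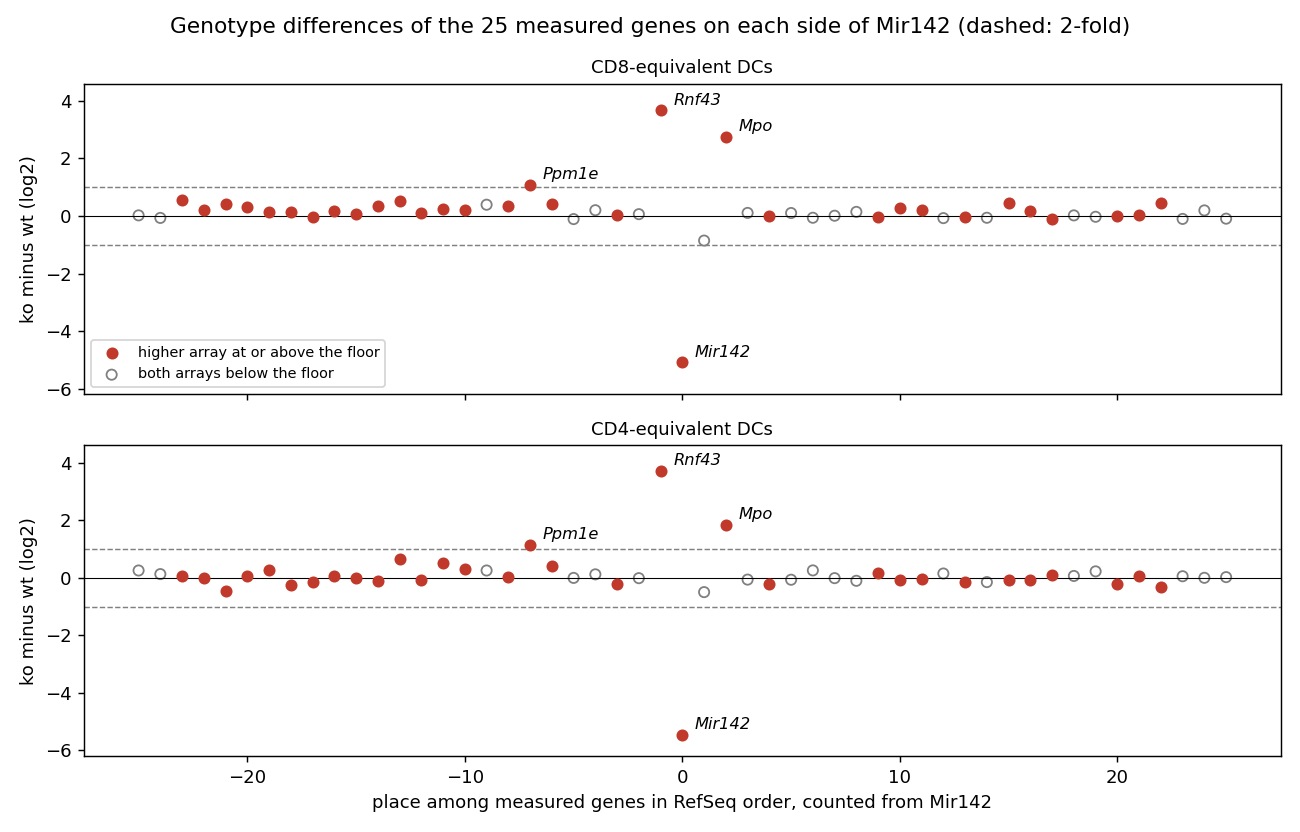
Differences between ko and wt (y axis, log2) for the 25 measured genes on each side of Mir142 (x axis, place in RefSeq gene order), CD8-equivalent DCs above CD4-equivalent DCs, with filled points for genes that reached the floor and open points for those that did not. Rnf43, Mpo, Ppm1e and Mir142 alone lie outside the dashed 2-fold lines in both panels.

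Mpo, on the other side of Mir142 beyond Tspoap1, encodes myeloperoxidase, the haem enzyme of primary granules in neutrophils, monocytes and their precursors. It read 7.55 in ko against 4.79 in wt CD8-equivalent DCs. In CD4-equivalent DCs it read 7.02 in ko against 5.18 in wt. Both ko arrays lay above the floor and both wt arrays below it. The differences were 2.76 and 1.85, or 6.76-fold and 3.60-fold, and 3.65-fold and 2.54-fold with the wt values raised to the floor. Mpo ranked 4 among all genes compared in CD8-equivalent DCs and 30 in CD4-equivalent DCs. In limma the mean difference was 2.30 ± 0.23 (SE), and the adjusted p of 0.053 did not pass the threshold of 0.05, although the value was higher in ko in both subsets. Mpo entered that fit through the ko arrays alone. Over 8 settings of the fit the adjusted p ran from 0.0087 to 0.78, and it was under 0.05 in 3 of them. The difference of differences, CD8-equivalent minus CD4-equivalent, was 0.91, which has no test and rests on wt values below the floor.

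Ppm1e encodes a PP2C-type serine/threonine phosphatase that acts on calcium/calmodulin-dependent kinases and is best known from brain. Its values were 7.40 in ko and 6.31 in wt CD8-equivalent DCs, and 6.22 in ko and 5.06 in wt CD4-equivalent DCs. The wt CD4-equivalent array alone lay below the floor. The value was thus higher in ko within each subset, but the wt CD8-equivalent array lay above the ko CD4-equivalent array, so ko and wt arrays overlapped across subsets. The differences were 1.09 and 1.16, or 2.13-fold and 2.23-fold, and with the low value raised to the floor the difference in CD4-equivalent DCs was 0.54, or 1.46-fold. Limma gave 1.12 ± 0.12 (SE) with an adjusted p of 0.053, which did not pass, and 3 of 8 settings gave a value under 0.05 in a range from 0.018 to 1. In the RefSeq annotation Ppm1e and Trim37 overlap, and their probes were not separated by strand here.

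Rad51c, which encodes a protein of DNA repair by homologous recombination, read 7.57 in ko and 7.16 in wt CD8-equivalent DCs, and 6.87 in ko and 6.46 in wt CD4-equivalent DCs. The ko minus wt differences were 0.40 and 0.42. The value was higher in ko within each subset, but both CD8-equivalent arrays lay above both CD4-equivalent arrays. Limma's 0.41 ± 0.12 (SE) did not pass (adjusted p = 0.21), and the difference of differences, CD8-equivalent minus CD4-equivalent, was -0.01.

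Trim37 and Mtmr4 differed little between genotypes. Trim37, a ubiquitin ligase of peroxisomes and centrioles, read 9.63 in ko against 9.28 in wt CD8-equivalent DCs and 9.14 in ko against 9.13 in wt CD4-equivalent DCs. Its limma difference was 0.18 ± 0.14 (SE, adjusted p = 0.59). Mtmr4, a myotubularin phosphatase of endosomal phosphoinositides, read 9.98 in ko against 9.96 in wt CD8-equivalent DCs and 9.74 in ko against 9.96 in wt CD4-equivalent DCs. Its limma difference was -0.10 ± 0.13 (SE, adjusted p = 0.77), and its sign was not the same in the subsets, although with arrays centred on their medians both differences were below 0.

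**Figure D3:**
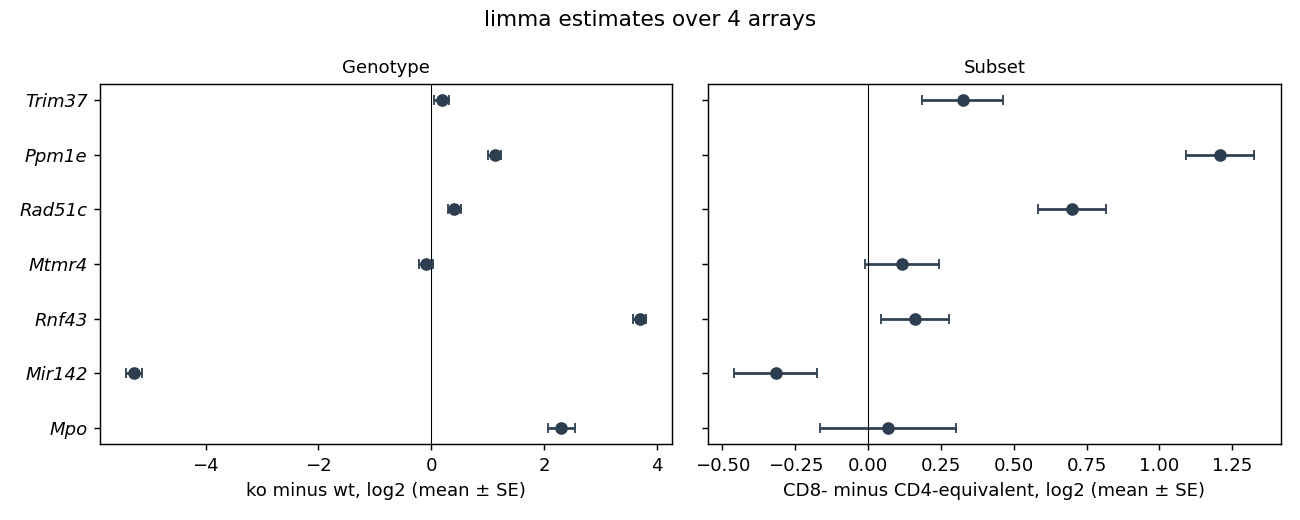
Limma estimates (points) with their standard errors (bars) for the 7 genes that reached the floor, on the log2 scale, for ko minus wt on the left and CD8-equivalent minus CD4-equivalent DCs on the right. Mir142 at -5.26 and Rnf43 at 3.69 passed the genotype test, and Ppm1e at 1.21 and Rad51c at 0.70 the subset test. Through the wt arrays alone Mir142 entered the fit, and Rnf43 and Mpo through the ko arrays alone, so their genotype results are a description.

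The other 3 neighbours stayed below the floor on all 4 arrays and entered no test. Hsf5, a heat shock factor family member needed for sperm formation in mice, ranged from 4.91 to 5.00. Tex14, a protein of the bridges between germ cells, ranged from 4.90 to 5.07. Tspoap1, a RIM-binding protein of synapses, sits directly beside Mir142 and read 4.69 in ko against 5.54 in wt CD8-equivalent DCs, and 4.76 in ko against 5.26 in wt CD4-equivalent DCs. Both ko values lay below both wt values, by 0.85 and 0.50, but no level above the floor supports a fold.

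The subset comparison used the same fit, with the genotypes as repeats. Ppm1e was higher in CD8-equivalent DCs than in the CD4-equivalent subset, by 1.17 in ko and 1.24 in wt, and limma's difference of 1.21 ± 0.12 (SE) passed (adjusted p = 0.0087). Rad51c was higher as well, by 0.69 in ko and 0.71 in wt, with 0.70 ± 0.12 (SE) and an adjusted p of 0.025. At 2-fold, Ppm1e alone of these genes passed upward in each genotype and 0 passed downward. In ko 3.39% of all genes compared passed upward in CD8-equivalent DCs and 3.9% downward, and in wt 2.1% and 3.14%. Limma called 2 of the 7 genes here, both higher in CD8-equivalent DCs, where 7.98% of all genes tested were called higher and 6.35% lower. For Ppm1e the genotype and subset differences were of like size, so its highest value was on the ko CD8-equivalent array and its lowest on the wt CD4-equivalent array. Against wt, Ppm1e was higher in ko by 1.09 in CD8-equivalent and 1.16 in CD4-equivalent DCs, and Rad51c by 0.40 and 0.42. On the ko CD4-equivalent array 4 of 7 comparable markers of CD8-equivalent DCs passed 2-fold upward against wt, where 1.39% of all genes compared did. In the CD8-equivalent arrays 0 of 8 such markers passed upward and 1 downward in ko, where the shares over all genes were 1.14% and 1%. The part of those markers in the values of Ppm1e and Rad51c was not tested.

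A wider window of 25 measured genes on each side of Mir142 was also read. It held 41 genes besides the 10, from Tbx2 to Nog, and 25 of these reached the floor in each genotype comparison. None of the 25 passed 2-fold in either direction in either subset. The shares over all genes compared were 1.14% upward and 1% downward in CD8-equivalent DCs, and 1.39% and 0.952% in CD4-equivalent DCs. Limma called 0 of 25 for genotype, beside 0.166% of all genes tested, and 2 had an unadjusted p under 0.05, beside 15.6%. With shares this small, 0 of 25 does not show where along the chromosome such differences end. The differences of the 25 ran from -0.09 to 0.56 in CD8-equivalent DCs and from -0.46 to 0.66 in CD4-equivalent DCs. In CD8-equivalent DCs 21 of the 25 lay above 0, beside 5058 of all 9972 genes compared. Their median was 0.18, where the median over all genes compared was 0.004. In CD4-equivalent DCs 10 of 25 lay above 0, beside 3608 of all 9978 genes compared. Their median there was -0.03, beside a median of -0.08 over all genes.

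The nearest measured genes outside the 10 stayed low or differed little. Septin4, a filament-forming GTPase gene, ranged from 4.78 to 4.98. Lpo, the peroxidase gene beside Mpo, read 4.73 in ko and 4.62 in wt CD8-equivalent DCs and 4.72 in ko and 4.78 in wt CD4-equivalent DCs, below the floor throughout. Mks1, a gene of the transition zone of cilia, read 6.04 in ko and 6.03 in wt CD8-equivalent DCs, and 5.78 in ko and 6.00 in wt CD4-equivalent DCs (limma -0.11, adjusted p = 0.73). Over chromosome 11 outside the window, 5 genes passed 2-fold upward and 7 downward in ko among 819 compared in CD8-equivalent DCs, and 13 and 9 among 827 in CD4-equivalent DCs. The shares over all genes compared were 1.14% upward and 1% downward in CD8-equivalent DCs, and 1.39% and 0.952% in CD4-equivalent DCs. Limma called 0 of 845 genes there, with 125 at an unadjusted p under 0.05, where 15.6% of all genes tested were. Mir142 and Rnf43 were the only genotype calls among 877 genes tested on chromosome 11, where 0.166% of all genes tested were called. Mir142 entered that fit through the wt arrays alone and Rnf43 through the ko arrays alone, so this too is only a description.

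**Figure D4:**
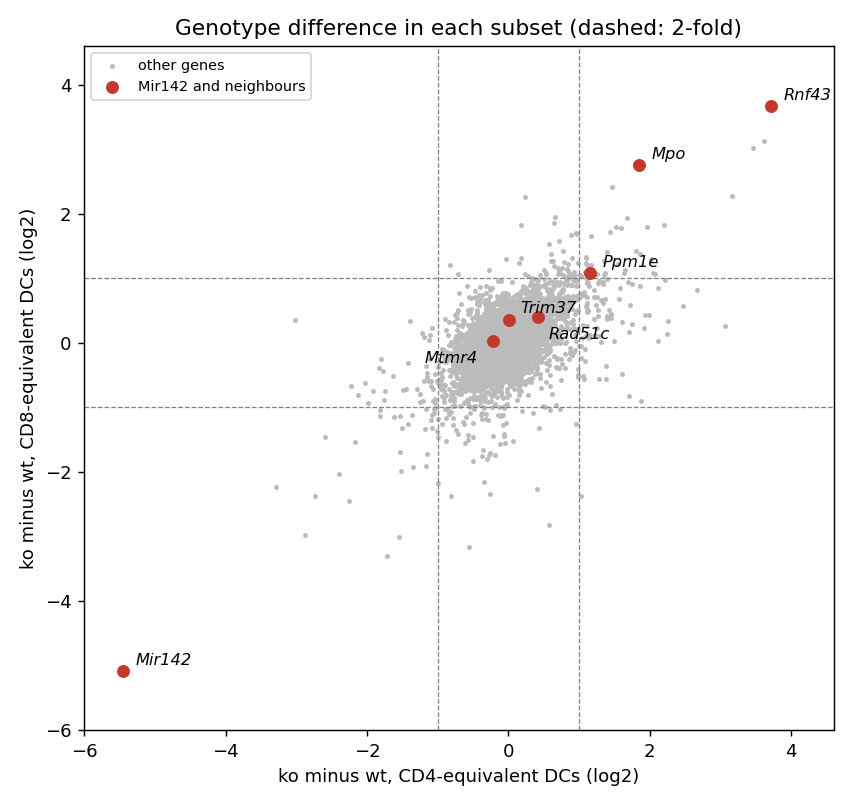
Difference between ko and wt in CD4-equivalent DCs (x axis, log2) against that in CD8-equivalent DCs (y axis, log2) for all genes that reached the floor in both, with Mir142 and its neighbours as large points and dashed lines at 2-fold. Mir142 lies at the lower left corner and Rnf43 at the upper right, with Mpo and Ppm1e above 2-fold on both axes.

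Promoter windows from RefSeq, 250 bases before to 50 bases after a transcript start on build GRCm38.p6, were available for 7 of the 10 genes. The windows of the 3 neighbours with higher values in ko are shown because these genes passed 2-fold upward in both subsets, with the upstream start of 2 given for Rnf43. They lie at chr11:87662837-87663136 (plus strand), chr11:87793534-87793833 (plus strand) and chr11:87358945-87359244 (minus strand). Capitals mark a match to one of 4 motifs searched on both strands, none of which contains another, and lower case marks the rest.
Rnf43: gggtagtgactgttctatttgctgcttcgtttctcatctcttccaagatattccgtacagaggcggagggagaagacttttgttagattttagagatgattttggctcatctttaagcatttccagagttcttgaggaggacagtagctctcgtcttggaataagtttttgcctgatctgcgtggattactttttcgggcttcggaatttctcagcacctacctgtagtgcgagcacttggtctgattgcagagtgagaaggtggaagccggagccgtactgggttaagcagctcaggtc
Mpo: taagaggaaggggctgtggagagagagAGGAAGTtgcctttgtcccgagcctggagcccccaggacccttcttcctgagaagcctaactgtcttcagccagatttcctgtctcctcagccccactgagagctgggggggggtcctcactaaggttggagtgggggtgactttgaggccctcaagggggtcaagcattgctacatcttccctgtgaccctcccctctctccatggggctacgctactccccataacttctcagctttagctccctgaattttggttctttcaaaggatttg
Ppm1e: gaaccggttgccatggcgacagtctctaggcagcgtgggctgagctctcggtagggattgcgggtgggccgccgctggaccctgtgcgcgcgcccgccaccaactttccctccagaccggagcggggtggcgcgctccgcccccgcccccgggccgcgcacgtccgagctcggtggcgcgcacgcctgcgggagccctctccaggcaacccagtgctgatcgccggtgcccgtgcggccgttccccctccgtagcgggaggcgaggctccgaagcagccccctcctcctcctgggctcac

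The motifs were a PU.1 core (AGGAAGT), a RUNX site (TGTGGT), a C/EBP site (TTGCNNAA) and a TCF/LEF site (ATCAAAG), each with its reverse complement. The Mpo window held 1 match to the PU.1 core, starting 223 bases before the start, and such a match stood in 9.35% of 32851 windows. The windows shown for Rnf43 and Ppm1e held 0 matches to any of the 4, and the shares of all windows with a match were 16.8% for RUNX, 10.8% for C/EBP and 3.73% for TCF/LEF. The 3 windows differed in composition. Ppm1e had 36 CpG dinucleotides and 74.3% GC, Rnf43 had 10 and 46.7%, and Mpo had 2 and 55.3%, where the medians over all windows were 7 and 52.7%.

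Other genes of the Wnt receptor pathway were read beside Rnf43. Of 34 listed genes 33 were analysed here and 13 reached the floor in each genotype comparison. Rnf43 alone passed 2-fold upward in ko in each subset and 0 passed downward, and limma called only Rnf43 (6 of 13 had an unadjusted p under 0.05, 5 higher and 1 lower), where 0.166% of all genes tested were called and 15.6% had an unadjusted p under 0.05. Rnf43 was counted through its ko arrays alone, so these counts are a description. Znrf3, the closest relative of Rnf43, read 7.19 in ko and 6.67 in wt CD8-equivalent DCs, and 6.16 in ko and 6.48 in wt CD4-equivalent DCs. Its differences of 0.53 and -0.32 ran in opposite directions (adjusted p = 0.87 in limma). Ctnnb1, the gene of beta-catenin, was higher in ko by 0.55 and 0.51, which did not pass (adjusted p = 0.14). Lgr5 and Axin2, 2 common readouts of Wnt signalling, lay below the floor on all 4 arrays. Ccnd1 and Myc, also on the list, lay above it on all 4 arrays. Ccnd1 was higher in ko by 0.53 in CD8-equivalent and 0.12 in CD4-equivalent DCs, and Myc had differences of -0.09 and -0.26. The median of the list was 0.42 in CD8-equivalent and 0.12 in CD4-equivalent DCs, beside 0.004 and -0.08 over all genes compared.

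Mpo was set beside 14 other genes of primary granules and myeloid precursors, among them the transcription factor genes Cebpa, Cebpe and Gfi1. Of this list 10 genes, Mpo included, reached the floor in each genotype comparison. Of 10 compared in CD8-equivalent DCs, 2 passed 2-fold upward in ko and 1 downward, where 1.14% and 1% of all genes compared did. Of 10 compared in CD4-equivalent DCs, 2 passed upward and 0 downward, beside 1.39% and 0.952%. Below 0 lay 5 of the 10 in CD8-equivalent and 3 of the 10 in CD4-equivalent DCs. Mpo was counted through its ko arrays alone, so these counts are a description. Besides Mpo, the genes past 2-fold in either subset were Ctsg, Prtn3 and Lyz2. Ctsg, which encodes cathepsin G, read 7.96 in ko against 6.26 in wt CD8-equivalent DCs and 6.76 in ko against 5.78 in wt CD4-equivalent DCs. That was 3.23-fold and 1.96-fold higher in ko, and limma's 1.33 ± 0.20 (SE) did not pass (adjusted p = 0.079). Prtn3, which encodes proteinase 3, was higher in ko by 0.38 in CD8-equivalent and 1.22 in CD4-equivalent DCs (adjusted p = 0.21). Elane and Prss57, also serine protease genes of the list, did not pass 2-fold. Elane, which encodes neutrophil elastase, reached the floor in ko CD4-equivalent DCs only, with 5.72 against 4.79 in wt, a difference of 0.94. Prss57 had ko minus wt differences of -0.03 in CD8-equivalent DCs and 0.05 in CD4-equivalent DCs, where it lay below the floor. Lyz2, the lysozyme gene shared with macrophages, was lower in ko by 1.44 in CD8-equivalent and by 0.07 in CD4-equivalent DCs (adjusted p = 0.36). The list's median was 0.008 in CD8-equivalent and 0.45 in CD4-equivalent DCs, beside 0.004 and -0.08 over all genes compared. Limma called 0 of 11 for genotype, with 5 at an unadjusted p under 0.05, beside 0.166% and 15.6% of all genes tested. Epx, the eosinophil peroxidase gene, read between 4.14 and 4.26, and Lpo too lay below the floor on all 4 arrays. Of the 3 measured peroxidase genes Mpo alone was above the floor, and only in ko.

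**Figure D5:**
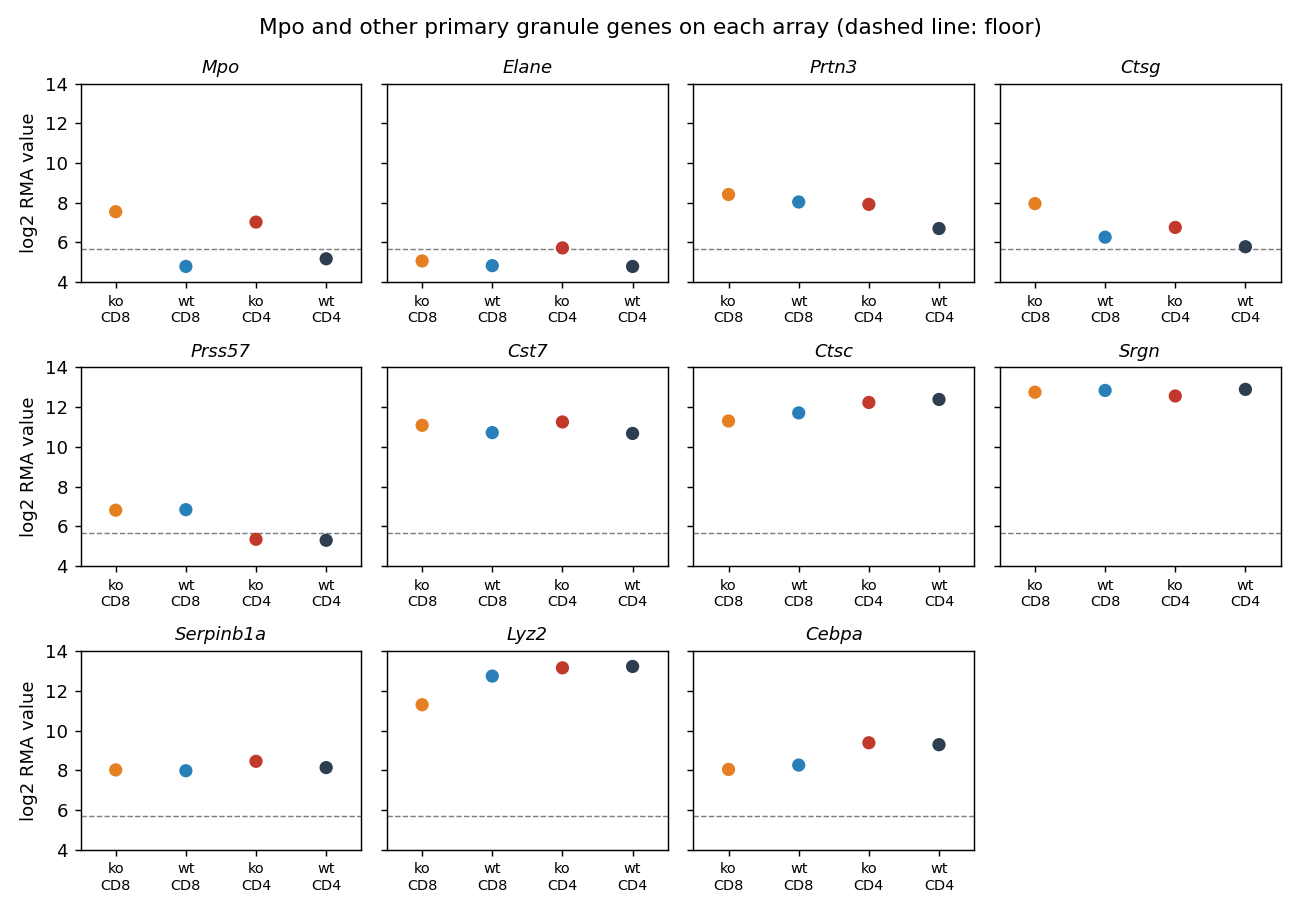
Log2 RMA values (y axis) of Mpo and the other listed genes of primary granules and myeloid precursors with at least 1 value at the floor or higher, on each of the 4 arrays (x axis, 1 point an array), with the floor of 5.68 as a dashed line. Mpo, Ctsg and Prtn3 had higher values in ko than in wt of each subset, and Lyz2 was lower in ko CD8-equivalent DCs.

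Marker lists of other cells were read beside Mpo. In CD4-equivalent DCs 10 of the 12 neutrophil markers could be compared, with 2 of the 12 below the floor in ko and 8 in wt. Of the 10, 8 passed 2-fold upward in ko, where 1.39% of all genes compared did. The other 2, Mmp8 and Csf3r, had ko minus wt differences of -0.69 and -0.74. In CD8-equivalent DCs all 12 lay below the floor on both arrays, and their summed linear value was 349 in ko and 373 in wt. Stem and progenitor markers, a list of 8, had a summed value of 11379 in ko and 7686 in wt CD8-equivalent DCs, and 8138 in ko and 8471 in wt CD4-equivalent DCs. Of 7 that could be compared, 2 passed 2-fold upward in ko in each subset and 0 downward, Hoxa9 and Meis1 in CD8-equivalent and Hoxa9 and Myb in CD4-equivalent DCs. The shares upward over all genes compared were 1.14% in CD8-equivalent and 1.39% in CD4-equivalent DCs. Another 2 of the 7 lay below 0 in each subset, Kit and Cd34 in CD8-equivalent and Flt3 and Cd93 in CD4-equivalent DCs. Monocyte and macrophage markers had a summed value of 4218 in ko and 9303 in wt CD8-equivalent DCs, and 15971 in ko and 17093 in wt CD4-equivalent DCs. The part of these markers in the Mpo values was not tested, and in bulk samples of sorted cells more cells of a type and more RNA per cell cannot be told apart.

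The families of the remaining neighbours were read in the same way. Between genotypes, 1.14% of all genes compared passed 2-fold upward and 1% downward in CD8-equivalent DCs, and 1.39% and 0.952% in CD4-equivalent DCs. Of all genes tested, limma called 0.166% for genotype, and 15.6% had an unadjusted p under 0.05. The genotype counts of these short lists are given beside those shares as a description. Of 12 PPM phosphatase genes 11 reached the floor, and Ppm1e alone passed 2-fold upward in ko in each subset, with 0 downward and 0 called by limma (2 had an unadjusted p under 0.05). Of 14 homologous recombination genes 12 were analysed here and 11 reached the floor, with 0 past 2-fold between genotypes and 0 called (3 had an unadjusted p under 0.05). Between subsets, limma called 7 of these 11, all higher in CD8-equivalent DCs, Rad51b, Rad51c, Brca1, Brca2, Palb2, Rad54l and Bard1, where 7.98% of all genes tested were called higher. The medians of all 11, CD8-equivalent minus CD4-equivalent, were 0.88 in ko and 0.51 in wt, beside 0.11 and 0.04 over all genes compared. Of 14 myotubularin genes 12 reached the floor, with 0 past 2-fold between genotypes and 0 called (2 had an unadjusted p under 0.05). Of 5 heat shock factor genes 4 were analysed here, as Hsf1 had no single-symbol probe set. Hsf2 alone of these 4 was above the floor. It read 8.90 in ko and 8.91 in wt CD8-equivalent DCs, and 8.88 in ko and 8.87 in wt CD4-equivalent DCs. None of the 3 RIM-binding protein genes reached the floor.

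The genes most like Mir142, Rnf43 and Mpo over the 4 arrays were found by the root mean square difference of log2 profiles, each centred on its own mean, among 10238 other genes. For Rnf43 they were Eya1 (0.23), Hoxa9 (0.48) and Mpo (0.74). Eya1, a transcriptional coactivator gene, read 9.14 in ko against 6.02 in wt CD8-equivalent DCs and 9.46 in ko against 5.84 in wt CD4-equivalent DCs. For Mpo they were Mid1 (0.28), Chrm3 (0.38) and Klk1b27 (0.38), the last a member of a paralog family whose probes may be shared. For Mir142 no gene came as near, and the closest were Gpr82 (1.18), Slc16a14 (1.30) and Ifitm1 (1.49). Gpr82, an orphan receptor gene, had ko minus wt differences of -2.98 in CD8-equivalent and -2.87 in CD4-equivalent DCs, against -5.08 and -5.45 for Mir142. Likeness over 4 arrays rests mainly on the genotype difference and is given as a description.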

How the data were processed

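The authors deposited 1 log2 value for each probe set and array, made with RMA and Partek, per the submitters' processing notes, from biotin-labelled total RNA, per the labels' protocols. The log base is an inference from their range of 3.52 to 14.3. Tool versions were not stated, and no scanner values or detection calls were used. RMA compresses differences near background, which understates folds of dim probe sets.

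Of 35399 probe sets, 21789 carried 1 symbol, 1621 several and 11989 none, in the platform annotation, and 21698 matched a RefSeq gene of GRCm38.p6. The highest-mean probe set stood for a gene. RefSeq gave names, gene order and sequences, and array probes were given no coordinates. Differences between single arrays had no test. Limma 3.58.1 in R 4.3.3 (lmFit, eBayes, two-sided) fitted genotype and subset on 4 arrays, leaving 1 residual degree of freedom, and was tested on simulated data. Alternatives were the floor, the prior, cyclic loess, median centring, the mean of probe sets and dropping the other term. Named genes were the 10 genes, the nearest 4 measured genes on each side, list members past 2-fold and the 3 most similar profiles. Other genes of a list are named as examples, chosen after their values were seen. The genes and lists were chosen with earlier results of these data known.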

Additional observations from a re-analysis of the deposited data

Results flagged for a closer look

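Mtmr4 alone of the 10 genes had differences of opposite sign where both comparisons had an array at or above the floor. (Mpo had 0.52 in ko and -0.39 in wt for CD8-equivalent minus CD4-equivalent, but both of its wt values lay below the floor.) Its ko minus wt difference was 0.0245 in CD8-equivalent and -0.22 in CD4-equivalent DCs, and its CD8-equivalent minus CD4-equivalent difference was 0.24 in ko and -0.00562 in wt. With arrays centred on their medians neither pair differed in sign, at -0.045 and -0.19 for ko minus wt and 0.18 and 0.036 for CD8-equivalent minus CD4-equivalent. The difference between the groups was not tested.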

How the results depend on the processing

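No paired analysis was possible because each group holds 1 array and the labels carry no replicate numbers, and for the same reason no replicate could be left out. The number of genes called here for genotype, 2 in the fit as reported, was 4 with a floor of 6, with a trended and robust prior and with median-centred arrays, where Mpo and Ppm1e joined Mir142 and Rnf43, and 0 without the subset term. Over all genes, 17 were called for genotype, and 3 without a floor, 58 with a floor of 6, 307 with the trended and robust prior, 240 with median-centred arrays and 0 without the subset term. For subset, 2 of the genes here were called, and 0 without the genotype term, while the count over all genes was 1467, against 946 without a floor and 99 without the genotype term. Without the other term the adjusted p was 0.083 for Mir142 and Rnf43 in the genotype test. Mtmr4, uncalled in each fit, changed sign to 0.024 in the CD8-equivalent arrays alone, and that value was -0.045 with median-centred arrays. The counts past 2-fold, in the 10 genes, in the window of 25 or 10 genes a side and over all genes, stayed within 1.5 times under each floor, scaling and probe set rule tried. Signal near background limits Tspoap1, Hsf5, Tex14, the wt values of Rnf43 and Mpo, the ko values of Mir142 and the wt CD4-equivalent value of Ppm1e.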
